A study of Homo sapiens with 10 samples.

Results

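Ribosomal protein genes encode the proteins of the cytosolic ribosome. Members were taken from the deposited gene tables by symbol: RPL or RPS with a number and, at most, a single letter or paralog suffix, together with RPLP0, RPLP1, RPLP2 and RPSA. Pseudogenes and the RPS6 kinases were left out. The rule found 86 of 32738 genes, 52 of the large and 34 of the small subunit, and it used no measured value. The series followed human colon cancer HCT-116 cells, an established line, after doxorubicin (DOX), an anthracycline that poisons topoisomerase II. DOX cells had 200 nM of the drug for 24 h and then 6 days of recovery without it, and untreated cells had no drug. Each condition had 2 single-cell libraries (10x Genomics, 3′ end counting of unique molecular identifiers, UMIs), and the 6 bulk mRNA samples of the series were not analysed here. The labels name only the line, and the growth notes beside them also name engineered derivatives of it. Neither labels nor methods say that the 2 libraries of a condition came from separate cultures. P-values of DOX against untreated therefore measure the spread between libraries only. Those of shallow against deep barcodes, where library was a block, measure the spread that remained between class sums within libraries.

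A ribosome joins a small subunit, which reads the message, to a large subunit, which makes the peptide bonds. Its proteins are needed in about equal number, and most of their messages begin with a C and a run of pyrimidines, the terminal oligopyrimidine start through which mTOR signalling sets their translation. Several members do more than build ribosomes. RPL5 and RPL11, with the smallest ribosomal RNA, bind MDM2 when ribosome assembly is disturbed, and RPS27L, a close copy of RPS27, is a known p53 target.

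The 4 libraries held 8000 barcodes each (DOX) and 4701 and 2528 barcodes (untreated), with 159897846 and 170495465 UMIs (DOX) and 317489299 and 209547139 UMIs (untreated). The 8000 DOX barcodes were set by the authors' Cell Ranger option, which takes in shallow barcodes. The authors name this option for DOX libraries only. The lowest barcode had 1341 and 1160 UMIs in DOX and 714 and 802 in untreated libraries. Among shallow barcodes, DOX and the way barcodes were admitted therefore cannot be told apart. With the study's limits (fewer than 12000 genes and 150000 UMIs, mitochondrial share below 8%), 6536 and 5811 DOX and 3787 and 2077 untreated barcodes remained. They were split at 2000 and 20000 UMIs into shallow (4338 and 4243 DOX, 140 and 71 untreated), intermediate (939 and 606 DOX, 327 and 82 untreated) and deep barcodes (1259 and 962 DOX, 3320 and 1924 untreated). The untreated shallow barcodes summed to only 167869 and 84191 UMIs, so that a gene at 0 there could still lie below 17.9 or 35.6 UMI counts per 1000000 UMIs (CPM), counting error only. All 6 epithelial markers (EPCAM, CDH1, KRT8, KRT18, KRT19, CLDN4) were present in every library and class, and 6 listed markers of blood, vessel and connective tissue summed to at most 9.98 CPM. Pairs of libraries shared 3 to 13 kept barcode sequences.

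The start sites of 8 members are shown because they include the paralog that rose most after DOX (RPS27L) and the paralogs RPL26L1 and RPL7L1, which fell in deep barcodes, beside RPS27, RPL26 and other high members. Each is the sense strand from 20 bases before to 20 bases from the start annotated by RefSeq on GRCh38.p14, with a qualifying pyrimidine run in capitals. A run qualified when a C lay within 5 bases of the start and at least 4 letters C or T followed it.
RPS27L: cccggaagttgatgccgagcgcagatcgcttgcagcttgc
RPS27: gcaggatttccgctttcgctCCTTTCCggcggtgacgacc
RPL26L1: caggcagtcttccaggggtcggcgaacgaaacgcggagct
RPL26: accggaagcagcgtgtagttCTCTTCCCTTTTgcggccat
RPL7L1: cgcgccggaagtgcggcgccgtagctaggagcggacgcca
RPL36A: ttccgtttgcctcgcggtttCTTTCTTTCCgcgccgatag
RPS18: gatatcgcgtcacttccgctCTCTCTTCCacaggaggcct
RPLP1: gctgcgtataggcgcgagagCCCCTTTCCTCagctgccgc
The windows lie at chr15:63157458-63157497 (-, RPS27L), chr1:153990742-153990781 (+, RPS27), chr5:172958709-172958748 (+, RPL26L1), chr17:8383174-8383213 (-, RPL26), chr6:42879596-42879635 (+, RPL7L1), chrX:101390991-101391030 (+, RPL36A), chr6:33272055-33272094 (+, RPS18), chr15:69452798-69452837 (+, RPLP1). RefSeq promoters were matched for 68 of the 86 members, and 55 of these (80.9%) had a qualifying start, against 25.2% of the 27305 symbols in the whole table. The 13 members without one were RPL6, RPL7L1, RPL9, RPL10L, RPL15, RPL17, RPL26L1, RPL27, RPS4X, RPS15, RPS26, RPS27L and RPS29. A match says only that these letters are in the window.

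In untreated deep barcodes the most abundant members were RPS2, RPLP1, RPL41, RPS12 and RPL13. UMIs tag 1 end of each molecule, so levels are given as CPM and were not divided by length. RPS2, a small subunit protein near the site where the message enters, had 8895 and 8749.7 CPM in DOX and 8968 and 8740.3 in untreated deep barcodes. RPLP1, an acidic protein of the stalk that binds elongation factors, had 8163 and 7509.7 CPM in DOX and 6840.1 and 6556 in untreated deep barcodes, and the DOX libraries lay above the untreated ones. RPL41, the smallest ribosomal protein, had 6841 and 6687 CPM in DOX and 5627 and 5720.2 in untreated deep barcodes. RPS12 had 5943 and 5748 CPM in DOX and 4687 and 4604 in untreated deep barcodes, and RPL13 had 4957 and 5088 CPM in DOX and 4211 and 4051 in untreated deep barcodes. The 10 most abundant members carried 25.0% to 27.0% of all ribosomal protein UMIs in each of the 12 library and class sums. At the other end, RPL10L had 1 UMI in all kept barcodes, and RPL3L and RPL39L had 23 to 63 UMIs per library. Reads shared between genes are not assigned, so the levels of RPL17, RPL36A and RPS10, which overlap readthrough genes, are uncertain.

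Taken as a sum, ribosomal protein genes made up more of the UMIs in DOX than in untreated libraries in every depth class. In these sums over pooled UMIs the gap was widest among shallow barcodes. Their share was 30.4% and 31.4% in DOX against 16.7% and 15.9% in untreated shallow barcodes. In intermediate barcodes it was 26.1% and 24.8% in DOX against 16.3% and 14.3% in untreated libraries. In deep barcodes it was 21.4% and 21.0% in DOX against 18.4% and 18.2% in untreated libraries. Within DOX libraries shallow barcodes had a higher share than deep ones, and within untreated libraries a lower one. Over all kept barcodes the share was 22.0% and 21.8% in DOX against 18.4% and 18.2% in untreated libraries. The large subunit members held 17.9% and 18.5% of UMIs in shallow DOX barcodes against 9.76% and 9.36% in shallow untreated barcodes. The small subunit members held 12.6% and 13.0% against 6.92% and 6.50%.

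The shares of mitochondrial genes and of the nuclear RNA MALAT1 were lower in shallow than in deep DOX barcodes. Mitochondrial genes took 1.74% and 2.00% of UMIs in shallow DOX barcodes, 4.90% and 5.28% in deep DOX barcodes, 3.06% and 4.01% in shallow untreated barcodes and 5.11% and 4.82% in deep untreated barcodes. MALAT1 took 0.230% and 0.292% in shallow DOX barcodes against 0.861% and 0.802% in deep DOX barcodes. In untreated libraries it took 0.689% and 0.499% in shallow and 0.491% and 0.514% in deep barcodes. The epithelial markers summed to 14227 and 12852 CPM in shallow DOX against 4158.0 and 4133 in shallow untreated barcodes. Most of the DOX sum came from KRT18 (5040 and 4720 CPM), KRT8 (4712 and 3773) and KRT19 (3733 and 3569). CDH1 had 27.0 and 23.2 CPM in shallow DOX against 17.9 and 71.3, near the floor, in shallow untreated barcodes. In shallow over deep DOX barcodes 5 of the 6 were higher and 1 lower, against 10.6% and 53.4% of all genes. Whether each shallow barcode held a whole cell was not tested, and the part of these differences, or of free RNA, in the ribosomal protein share was not tested.

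Barcode by barcode, the share was nearly uniform among shallow DOX barcodes. Its median and quartiles were 30.5% (29.2% to 31.8%) and 31.6% (30.2% to 32.9%) in the DOX libraries, against 17.6% (14.6% to 19.5%) and 16.6% (14.7% to 18.4%) in the untreated libraries. The interquartile range was 2.53 and 2.77 percentage points in shallow DOX barcodes, where counting error alone would give 1.65 and 1.79. In shallow untreated barcodes it was 4.85 and 3.68 points, where counting error alone would give 1.47 and 1.48. Intermediate barcodes had medians of 31.0% and 30.3% in DOX against 17.1% and 14.7% in untreated libraries. By barcode, the intermediate DOX shares thus lay near the shallow ones, unlike in the sums over pooled UMIs. Most intermediate DOX barcodes (826 of 939 and 486 of 606) had 2000 to 5000 UMIs, with medians of 31.2% and 30.8%. Among DOX barcodes of 10000 to 20000 UMIs the shares spread widely. Their quartiles were 4.63% and 28.8% (47 barcodes) in DOX library 1 and 9.39% and 27.4% (46 barcodes) in DOX library 2. Deep DOX barcodes had medians of 20.6% (17.8% to 24.2%) and 20.5% (18.0% to 23.3%). Deep untreated barcodes had medians of 18.2% (16.4% to 20.1%) and 18.2% (16.4% to 20.2%). The plot of share by depth shows these values.

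**Figure D1:**
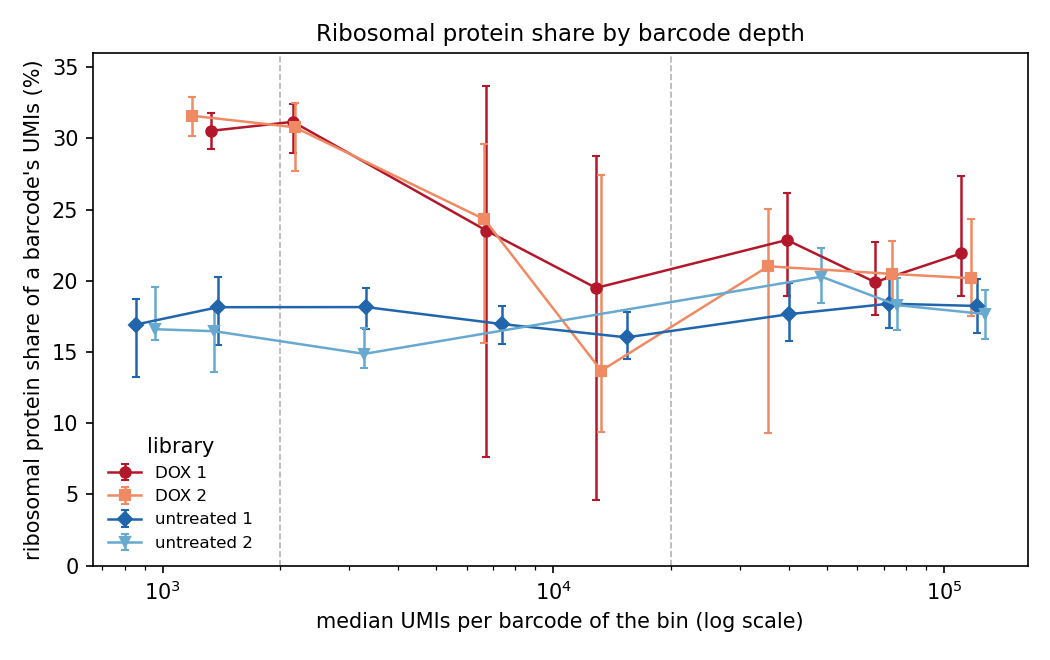
Ribosomal protein share of a barcode's UMIs (percent, vertical axis) against UMIs per barcode (log axis), as the median with quartile bars of each bin of at least 20 barcodes, for DOX libraries 1 and 2 and untreated libraries 1 and 2. Dashed lines mark 2000 and 20000 UMIs. Both DOX libraries sit near 30.5% and 31.6% below 2000 UMIs and between 19.9% and 21.9% above 50000 UMIs, and the untreated medians lie between 14.9% and 20.3%.

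Each gene was then compared between DOX and untreated deep barcodes, as its share of all UMIs summed per library (edgeR quasi-likelihood test, Benjamini-Hochberg adjustment over all genes tested, threshold 0.05). Of the 85 members tested, 46 rose and 3 fell, with a median log2 fold change of 0.21. Over all 20968 genes, 36.1% rose and 14.1% fell, with a median of 0.19. With TMM factors, which centre the bulk of genes near no change (median 0.03), 12 members rose and 4 fell, against 25.8% of all genes that rose and 25.0% that fell. With DESeq2 15 members rose and 10 fell, against 18.8% and 24.7% of all genes. Without DOX replicate 1, 27 members and 27.1% of all genes rose, on shares of all UMIs.

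The largest rise in deep barcodes among well counted members was that of RPS27L (hg19 chr15:63418071-63450220). It had 509.9 and 428 CPM in DOX and 251 and 235 in untreated deep barcodes, and the libraries of the conditions did not overlap. The change was 1.93-fold (log2 0.95 ± 0.08, SE, adjusted p = 3.50e-10), and 0.79 with TMM factors. RPL36A (hg19 chrX:100645812-100651143), a large subunit protein at the tRNA exit site, had 619 and 591 CPM in DOX and 389 and 389 in untreated deep barcodes. Its log2 fold change was 0.64 ± 0.07 (adjusted p = 6.91e-08). For RPL36A too, both DOX libraries lay above both untreated ones. RPL39L (log2 0.85 ± 0.30, adjusted p = 0.0207) and RPL3L (log2 0.82 ± 0.41, adjusted p = 0.0970) rank among the 5 highest, but rest on at most 0.633 CPM, and RPL39L was not called with TMM factors.

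The 3 members that fell in deep barcodes were RPS4Y1, the Y-linked copy of RPS4X (log2 -0.51 ± 0.08, adjusted p = 7.98e-06), and the paralogs RPL7L1 and RPL26L1. RPL7L1 (hg19 chr6:42847354-42857663), a homolog of RPL7 that acts in ribosome assembly, had 105 and 107 CPM in DOX and 136 and 152 in untreated deep barcodes. Its log2 fold change was -0.45 ± 0.08 (adjusted p = 2.93e-05). RPL26L1 (hg19 chr5:172385732-172396774) had 122 and 122 CPM in DOX and 162 and 146 in untreated deep barcodes (log2 -0.34 ± 0.08, adjusted p = 6.41e-04). All 3 also fell with TMM factors. The next lowest values were RPS26 at -0.09 ± 0.07 (adjusted p = 0.351) and RPS7 at -0.08 ± 0.08 (adjusted p = 0.405), which did not pass the test, although RPS26 did with TMM factors (-0.24, adjusted p = 0.0359).

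**Figure D2:**
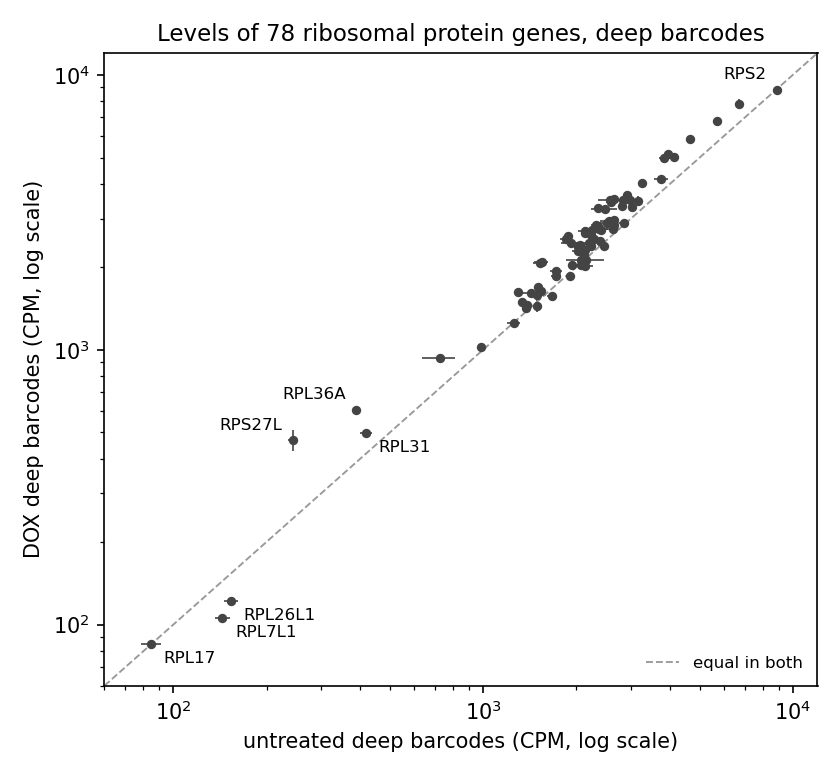
Mean level of 78 members in DOX deep barcodes (vertical) against untreated deep barcodes (horizontal), in CPM on log axes, with bars to the lower and higher of the 2 libraries. Members below 20 CPM, the Y-linked member and a few others are not drawn. Most points lie slightly above the line of equal levels, RPS27L and RPL36A lie well above it, and RPL7L1 and RPL26L1 lie below it.

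To see which members changed their part of the ribosomal protein RNA, the same deep sums were set against the members' own total. Of 85 members, 12 took a larger and 15 a smaller part, where 23.1% and 27.8% of all genes were higher and lower on this scale. Among the 12 were RPS27L (0.73 ± 0.08), RPL36A (0.42 ± 0.08), RPL28, RPL26, RPL37A, RPL34, RPL13A, RPL27A, RPL39, RPL36 and RPS27. The 15 were RPS4Y1, RPL7L1 (-0.66 ± 0.08), RPL26L1 (-0.55 ± 0.08), RPS26 (-0.30 ± 0.07), RPS7 (-0.29 ± 0.07), RPL6, RPL5, RPSA, RPL24, RPS29, RPL22L1, RPS2, RPL17, RPLP0 and RPL15. The values in brackets are log2 differences ± SE. Without DOX replicate 1, 10 members were called, against 34.2% of all genes, and without DOX replicate 2, 12 members, against 39.1%.

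Between DOX and untreated shallow barcodes most members rose. Here DOX cannot be told apart from the forced barcode count of the DOX libraries. Of 82 tested, 75 rose and 1 fell (median log2 fold change 0.90), whereas over all 11009 genes 5.63% rose and 26.8% fell (median -0.66). With TMM factors 80 of 82 members rose, against 16.2% of all genes. When either DOX library was left out no gene of 4331 or 4336 passed the adjusted threshold, members included, although 71 and 70 members had an unadjusted p under 0.05 and their medians were 0.93 and 0.88.

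RPS27L was again highest, with 1301 and 1241 CPM in DOX and 328 and 249 in untreated shallow barcodes (log2 2.08 ± 0.18, adjusted p = 5.39e-15). RPL36A had 1022 and 1064 CPM in DOX and 357 and 380.1 in untreated shallow barcodes (log2 1.51 ± 0.17, adjusted p = 5.31e-11). RPL26, which lies near the peptide exit tunnel and also binds the p53 message, had 4190.2 and 4474 CPM in DOX and 1614 and 1473 in untreated shallow barcodes (log2 1.47 ± 0.13, adjusted p = 5.40e-14). In each of these both DOX libraries lay above both untreated ones. RPL34 (log2 1.42 ± 0.13) and RPS18, at the head of the small subunit (log2 1.40 ± 0.13), completed the 5 highest. RPL7L1 fell, with 101 and 98.1 CPM in DOX and 167 and 261 in untreated shallow barcodes (0.499-fold, adjusted p = 6.61e-04). Its untreated values there rest on only 28 and 22 UMIs. RPL4, RPL26L1, RPSA and RPS4Y1 had the next lowest values (0.21 to 0.30) and did not pass the test. With TMM factors all of them were called higher (1.02 to 1.11), and RPL7L1 was not called (-0.19, adjusted p = 0.581).

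Depth was next compared within libraries. In DOX libraries, 78 of 83 members were higher and 1 was lower in shallow than in deep barcodes (median log2 fold change 0.58), while of all 13764 genes 10.6% were higher and 53.4% lower (median -0.65). With TMM factors all 83 were higher, against 27.3% of all genes. In untreated libraries no member was higher and 2 were lower, RPS15 and RPL29, with a median of -0.14 over the 83 members. Over all genes there 0.0799% were higher and 0.0509% lower, 34 members had an unadjusted p under 0.05, and with TMM factors 36 members were lower, against 1.01% of all genes. No member was lower there without untreated replicate 1 or without untreated replicate 2, and with an SE of 0.10 for a typical member small differences in either direction were not detectable at this depth.

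The difference between the conditions was tested as an interaction. It rests on the shallow barcodes too, so DOX and the forced barcode count cannot be told apart in it. For 74 of 83 members the change in shallow over deep barcodes was larger in DOX than in untreated libraries, and for none was it smaller (median of the difference 0.75). Over all genes 3.80% had a larger and 19.4% a smaller change (median -0.64). With TMM factors 80 members were larger, against 13.2% of all genes. The 5 highest were RPS27L (1.17 ± 0.18), RPS18 (1.03 ± 0.11), RPL26 (1.03 ± 0.12), RPS10 (1.01 ± 0.15) and RPS9 (0.99 ± 0.13), in log2 units. Among the 9 members not called were RPSA, RPL4, RPL7L1, RPL17, RPL26L1 and RPS4Y1. RPL7L1 was at -0.59 ± 0.23 (adjusted p = 0.0655).

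**Figure D3:**
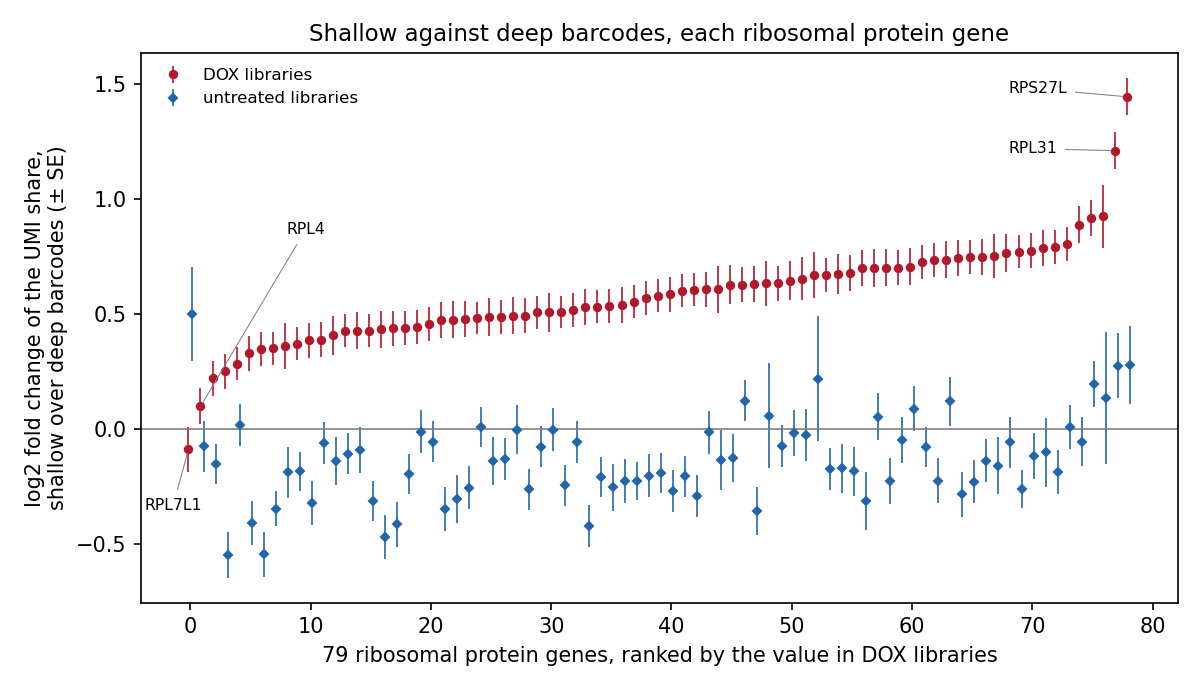
Log2 fold change of the UMI share in shallow over deep barcodes, with SE, for 79 members of at least 20 CPM, ranked by the value in DOX libraries (circles), with untreated libraries as diamonds. In DOX libraries all of these but RPL7L1 are above 0, up to RPL31 and RPS27L, while untreated values lie between -0.55 and 0.28, apart from RPL7L1 at 0.50.

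RPS27L and RPL31 led the rise in shallow over deep DOX barcodes. RPS27L had 1301 and 1241 CPM in shallow and 509.9 and 428 in deep DOX barcodes (log2 1.45 ± 0.08, adjusted p = 1.77e-11), against 328 and 249 in shallow and 251 and 235 in deep untreated barcodes. RPL31 (hg19 chr2:101618691-101640494), which lies beside the peptide exit tunnel, had 1155 and 1150.3 CPM in shallow and 495 and 501 in deep DOX barcodes (log2 1.21 ± 0.08, adjusted p = 1.85e-10). It had 483 and 546 in shallow and 402 and 437 in deep untreated barcodes, and in deep barcodes the conditions differed by log2 0.25 ± 0.08 (adjusted p = 0.00778). RPS4Y1 (0.93 ± 0.14) and the large subunit proteins RPL27A (0.92 ± 0.08) and RPL38 (0.89 ± 0.08) followed.

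On shares of all UMIs some members changed little or not measurably. RPL7L1 had 101 and 98.1 CPM in shallow and 105 and 107 in deep DOX barcodes (log2 -0.09 ± 0.10, adjusted p = 0.435), and turned to 0.51 with TMM factors. RPL4, a large subunit protein lining the exit tunnel, had 1088 and 1107 CPM in shallow and 1020.1 and 1029.8 in deep DOX barcodes (log2 0.10 ± 0.08, adjusted p = 0.279). RPL12, at the base of the stalk, had 4493 and 4945 CPM in shallow and 4002 and 4091 in deep DOX barcodes (log2 0.22 ± 0.07, adjusted p = 0.0146). RPS15 was at 0.25 ± 0.08 (adjusted p = 0.00669). With TMM factors all of these were called higher, with RPL4 at 0.69, RPL12 at 0.82 and RPS15 at 0.85.

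Against the members' own total, which the scaling of all genes does not touch, 21 of 83 members took a larger and 13 a smaller part of ribosomal protein RNA in shallow than in deep DOX barcodes. On this scale 1.77% of all genes were higher and 77.2% lower. RPS27L (0.90 ± 0.08, adjusted p = 3.57e-09) and RPL31 (0.67 ± 0.08, adjusted p = 1.98e-07) were highest, followed by RPS4Y1 (0.38 ± 0.16), RPL27A (0.37 ± 0.07) and RPL38 (0.34 ± 0.07). RPL7L1 (-0.63 ± 0.12, adjusted p = 6.02e-05) was among the lowest, followed by RPL4 (-0.45 ± 0.08), RPL12 (-0.33 ± 0.06) and RPS15 (-0.30 ± 0.06). Without DOX replicate 1, 7 members were called, against 57.1% of all genes, and without DOX replicate 2, 8 members, against 54.8%.

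**Figure D4:**
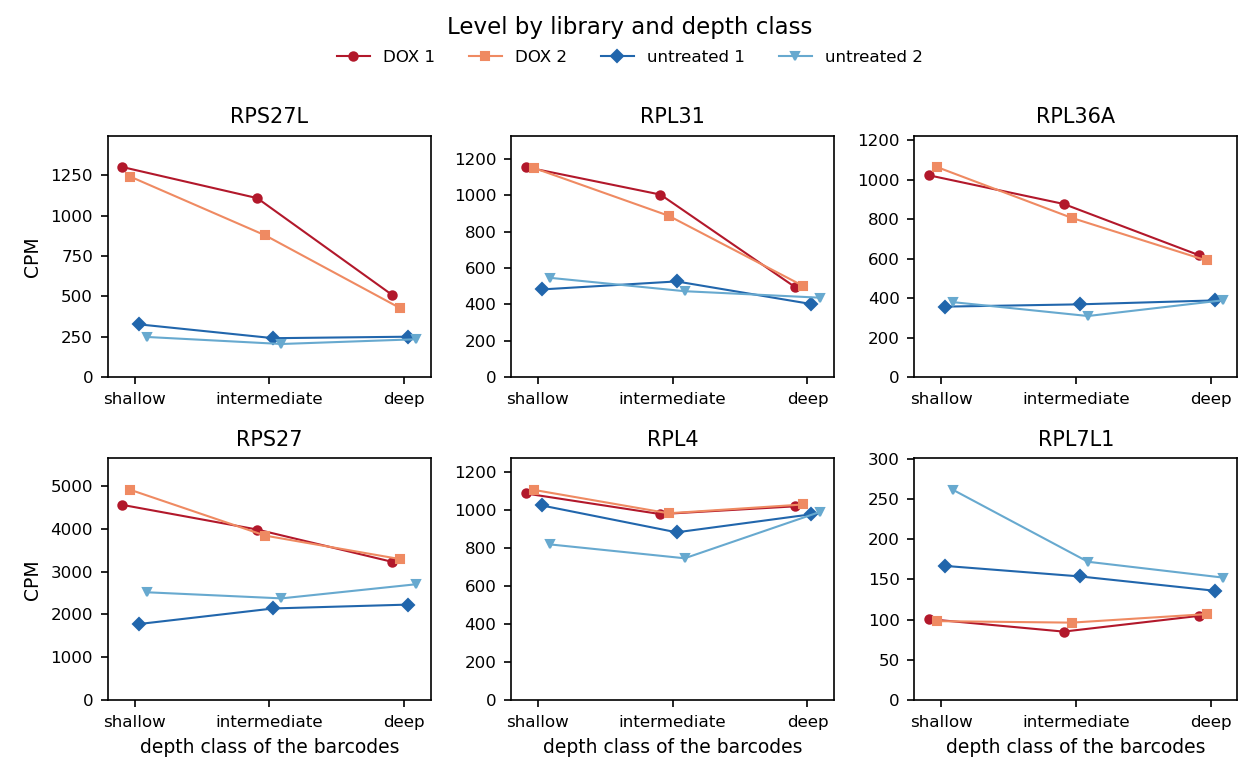
CPM of RPS27L, RPL31, RPL36A, RPS27, RPL4 and RPL7L1 in shallow, intermediate and deep barcodes, 1 point for each of DOX libraries 1 and 2 and untreated libraries 1 and 2, vertical axes from 0. RPS27L, RPL31, RPL36A and RPS27 are highest in shallow DOX barcodes, RPL4 lies between 747 and 1107 CPM throughout, and RPL7L1 is lower in DOX than in untreated libraries in every class.

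Paralogs and their parent genes differed in several pairs. RPS27L was present at 15.8% and 13.0% of the RPS27 level in DOX against 11.3% and 8.69% in untreated deep barcodes. In shallow barcodes it stood at 28.5% and 25.3% in DOX against 18.5% and 9.91% in untreated libraries. These untreated shallow values rest on only 55 and 21 UMIs of RPS27L. RPS27 itself also rose, with 3229 and 3292 CPM in DOX and 2230.1 and 2706 in untreated deep barcodes (log2 0.40 ± 0.08, adjusted p = 1.99e-04), and was not called with TMM factors. RPL26L1 stood at 4.64% and 4.78% of RPL26 in DOX against 8.44% and 7.92% in untreated deep barcodes, RPL26 having risen (0.46 ± 0.07, adjusted p = 8.72e-06). RPL7L1 stood at 4.34% and 4.56% of RPL7 in DOX against 6.09% and 6.83% in untreated deep barcodes, with RPL7 at 0.09 ± 0.07 (adjusted p = 0.305).

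RPL22L1, which shares its parent's fold and can replace it in mouse, was nearly as abundant as RPL22. It stood at 77.6% and 74.3% of RPL22 in DOX against 85.4% and 78.2% in untreated deep barcodes, and neither gene was called there (RPL22L1 -0.01 ± 0.08, RPL22 0.10 ± 0.07). The pairs RPL39L with RPL39, RPL3L with RPL3 and RPL10L with RPL10 had, in shallow and in deep barcodes, the copy with the L suffix at no more than 0.0213% of the parent. Among these parents RPL39 (0.42 ± 0.07, adjusted p = 4.31e-05), RPL3 (0.21 ± 0.08, adjusted p = 0.0264) and RPL10 (0.21 ± 0.08, adjusted p = 0.0244) rose in deep barcodes, of which only RPL39 did so with TMM factors.

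Members known for a role of their own behaved unevenly in deep barcodes. Of the stalk proteins, RPLP0, which anchors the stalk, had 2929 and 2854 CPM in DOX and 2949 and 2748 in untreated deep barcodes (log2 0.02 ± 0.07, adjusted p = 0.827). Its partners RPLP1 (0.23 ± 0.07, adjusted p = 0.0131) and RPLP2 (0.24 ± 0.07, adjusted p = 0.00941) rose on shares of all UMIs and were not called with TMM factors. Of the pair that binds MDM2, RPL11 had 2868 and 2806 CPM in DOX and 2411 and 2233 in untreated deep barcodes (log2 0.29 ± 0.07, adjusted p = 0.00201), and was not called with TMM factors. RPL5 had 2413 and 2339 CPM in DOX and 2541 and 2355 in untreated deep barcodes, with overlapping groups (log2 -0.04 ± 0.07, adjusted p = 0.659), and its part of the ribosomal protein total fell (-0.25 ± 0.07, adjusted p = 0.00321).

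RPS6, the target of the S6 kinases, had 3439 and 3237 CPM in DOX and 2797 and 2805 in untreated deep barcodes (log2 0.25 ± 0.07, adjusted p = 0.00545), and was not called with TMM factors. RPSA, which also serves as a laminin receptor, had 1371 and 1525 CPM in DOX and 1465 and 1513 in untreated deep barcodes, with overlapping groups (log2 -0.04 ± 0.08, adjusted p = 0.688). RPS27A, made as a fusion with ubiquitin, was at 0.10 ± 0.07 (adjusted p = 0.249). In shallow over deep DOX barcodes all of these were higher, namely RPLP0 (0.63 ± 0.08), RPLP1 (0.51 ± 0.09), RPLP2 (0.49 ± 0.08), RPL5 (0.48 ± 0.07), RPL11 (0.58 ± 0.07), RPS6 (0.53 ± 0.07), RPS27A (0.60 ± 0.07) and, least, RPSA (0.28 ± 0.07).

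Over all kept barcodes, which mix the classes, 56 of 85 members rose and 3 fell (median 0.25), where 35.9% of all 21299 genes rose and 16.1% fell (median 0.17). With DESeq2 27 rose and 6 fell, against 20.3% and 25.8% of all genes. With TMM factors 23 rose and 3 fell, against 27.5% and 26.0% of all genes. RPS27L (1.13 ± 0.08), RPL39L (1.03 ± 0.30), RPL3L (0.84 ± 0.39, not called), and RPL36A (0.72 ± 0.07) were among the highest. RPL7L1 (-0.46 ± 0.08), RPS4Y1 (-0.41 ± 0.08) and RPL26L1 (-0.28 ± 0.08) fell.

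Across deep barcodes of 1 library, most members varied together. The Spearman correlation of a member's share with the summed share of the other members had a median over 83 members of 0.81 and 0.80 in DOX (1259 and 962 barcodes) and 0.73 and 0.75 in untreated libraries (3320 and 1924 barcodes). RPS14 had the highest mean over the 4 libraries, 0.88. RPL7L1 was the single member with a negative value in all 4 (-0.19 and -0.16 in DOX, -0.21 and -0.19 in untreated libraries). These points share library and depth, and the values are a description.

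Members with and without the oligopyrimidine start were set side by side. In deep barcodes 55 tested members with the start had a median log2 fold change of 0.21 (32 rose, 1 fell). The 12 tested members without it had 0.02 (2 rose, 2 fell, values from -0.45 for RPL7L1 to 0.95 for RPS27L). Of all genes tested there, 36.1% rose and 14.1% fell (median 0.19). In shallow over deep DOX barcodes the medians were 0.57 with and 0.64 without the start. Longer transcripts had lower values of the same change. The Spearman correlation with length was weak across 82 members (-0.18) and stronger across 13461 genes (-0.42), which are not independent replicates. The part of length in the change of the members was not tested. Members are short, with a median annotated length of 878 bases against 3094 over the genes compared.

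Other genes of the pathway were counted in the same way. Of the 4 tested cytosolic ribosomal proteins outside the symbol rule, 1 rose and none fell in deep barcodes. There 36.1% of all genes rose and 14.1% fell (median 0.19). All 4 of these proteins were higher in shallow than in deep DOX barcodes (median 0.56), against 10.6% of all genes. Of 14 translation factors and other genes known for an oligopyrimidine start, 2 rose and 1 fell in deep barcodes (median -1.12e-05), the 2 being TPT1, at 3527 and 3294 CPM in DOX against 2808 and 2623 in untreated deep barcodes (0.33 ± 0.07, adjusted p = 6.47e-04), and the elongation factor EEF1A1, at 6365 and 5926 CPM in DOX against 5445 and 5295 in untreated deep barcodes (0.19 ± 0.07, adjusted p = 0.0298). The one that fell was HNRNPA1, at 650.3 and 698 CPM in DOX against 865 and 794 in untreated deep barcodes (-0.30 ± 0.08, adjusted p = 0.00183). In shallow over deep DOX barcodes 6 of the 14 were higher and 3 lower (median 0.20). Among all genes 10.6% were higher and 53.4% lower there (median -0.65).

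Most listed genes that build ribosomes fell in DOX deep barcodes. Of 20 assembly genes 17 fell and none rose (median -0.37), where 14.1% of all genes fell and 36.1% rose (median 0.19). Nucleolin, NCL, had 1156 and 1227 CPM in DOX against 1776 and 1904 in untreated deep barcodes (-0.63 ± 0.08, adjusted p = 1.19e-07), and the pseudouridine synthase DKC1 had 135 and 142 CPM in DOX against 204 and 210.0 in untreated deep barcodes (-0.58 ± 0.07, adjusted p = 3.99e-07). RRS1, which brings the smallest ribosomal RNA into the large subunit in yeast, had 55.4 and 55.6 CPM in DOX against 84.0 and 80.7 in untreated deep barcodes (-0.57 ± 0.08, adjusted p = 6.54e-07). Of 78 mitochondrial ribosomal proteins, which serve the ribosome inside mitochondria, 59 fell and none rose (median -0.29). MRPL49 had 32.0 and 31.4 CPM in DOX against 48.8 and 46.6 in untreated deep barcodes (-0.59 ± 0.08, adjusted p = 6.00e-07), and MRPL20 had 276 and 273 CPM in DOX against 403 and 393 in untreated deep barcodes (-0.53 ± 0.07, adjusted p = 1.09e-06). In shallow over deep DOX barcodes 38 of 74 mitochondrial ribosomal proteins were higher and 7 lower (median 0.28). Of 20 assembly genes 3 were higher and 11 lower there (median -0.42). Among all genes 10.6% were higher and 53.4% lower (median -0.65), so the assembly genes were lower about as often as all genes.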

How the data were processed

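Single-cell RNA-seq (10x Genomics 3′ kit) of 2 DOX and 2 untreated HCT-116 libraries was analysed. The authors deposited raw UMI counts per gene and barcode, made with Cell Ranger 7.2.0 on hg19 (file header; the submitters' notes list bedtools 2.25, SAMtools 1.2, CASAVA 1.8.2 and Cell Ranger 7.0.0). For DOX libraries they forced 8000 barcodes. Free RNA was not subtracted and no doublet caller was run; deep barcodes were tested again without the top 10% by UMIs.

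Counts were summed per library, or per library and depth class (12 sums, library as a block), after the study's limits. They were tested with edgeR 4.0.16 (R 4.3.3, glmQLFit and glmQLFTest) after its filter on low counts. Normalisation factors were 1, so that a fold change is that of the share of all UMIs, or library size was the members' total. All genes entered each fit. TMM factors and DESeq2 1.42.0 were alternatives. Before use, simulated data tested deep DOX against untreated barcodes and shallow against deep DOX barcodes, on shares of all UMIs. The other comparisons were not simulated. No rows or columns were left out of library totals.

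The rule for named genes took the 5 most abundant members, the 5 highest and 5 lowest values of each comparison, 7 paralog pairs, stalk proteins, RPL5, RPL11, RPS6, RPSA and RPS27A, and up to 3 companion genes per list. RPL28, RPL37A and others listed without values passed a test. Members and lists were chosen with earlier results of these data known. Coordinates are from GENCODE 44 lifted to hg19 (85 of 86 members matched), and start sequences from RefSeq on GRCh38.p14. A few members and companion genes are not reported here. Alternatives are in the closing section.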

Additional observations from a re-analysis of the deposited data

Results flagged for a closer look

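The change of a member in shallow over deep barcodes differed between the DOX and the untreated libraries by a test of the difference itself (the interaction term, edgeR) for 74 of 83 members tested, all larger in DOX. RPS27L differed by 1.17 (log2, SE 0.18, adjusted p = 8.60e-05), RPS18 by 1.03 (adjusted p = 2.32e-06) and RPL26 by 1.03 (adjusted p = 1.10e-05). In each, both DOX libraries were higher in shallow than in deep barcodes. Without DOX replicate 2 the count was 62 and without DOX replicate 1 it was 67. No group held enough libraries for a test of single outlying libraries. DOX and the forced barcode count of the DOX libraries cannot be told apart in this difference.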

How the results depend on the processing

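Depth limits what the untreated shallow barcodes can show (167869 and 84191 UMIs in all), and with 2 libraries per condition leaving one out weighs heavily. Among the named members, 1850 of 2100 alternative values kept their direction and side of the threshold, 163 lost the call, 85 gained it and 2 reversed: in shallow over deep DOX barcodes RPL7L1 turned to 0.51 (TMM) and 0.57 (DESeq2); in these scalings the bulk of genes is centred near no change.

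The count of members that rose in DOX deep barcodes (46) was 12 with TMM and 15 with DESeq2, and over all kept barcodes (56) it was 23 with TMM, 27 with DESeq2 and 37 over all deposited barcodes. The count that was lower in shallow than in deep untreated barcodes (2) was 36 with TMM, 36 with DESeq2, 9 with no filter on low counts, 5 with deep barcodes from 10000 UMIs, and 0 over all deposited barcodes, with a mitochondrial limit of 20% and with shallow barcodes from 1000 UMIs. That last limit was chosen after seeing the data, because no DOX barcode had fewer than 1000 UMIs, so the planned limit below 1000 was not run. Leaving out 1 library each gave 27 to 50 members that rose in deep, 0 to 75 in shallow and 38 to 60 over all kept barcodes. It gave 67 to 78 that were higher in shallow over deep DOX barcodes, 0 to 2 that were lower in untreated ones and 62 to 74 for the interaction. Against the members' total it gave 10 to 31 (DOX against untreated, deep) and 7 to 49 (shallow against deep, DOX). Where a lone library remained, it was taken to vary like the others. The cause of these changes was not tested.

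Libraries of the 2 conditions share replicate numbers but nothing ties them. The deviations of same-numbered libraries correlated by 0.10 over 6980 genes in deep and 0.04 over 6433 genes in shallow barcodes. With the replicate number as a block, 51 (deep), 74 (shallow) and 59 (all kept) members rose, and 26 were called against the members' total.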

Other observations

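RPS27L followed CDKN1A, the p53 target that encodes the cell cycle inhibitor p21, across deep barcodes. The Spearman correlation of the 2 shares was 0.66 and 0.65 in DOX and 0.33 and 0.38 in untreated libraries, while the median over 83 members was 0.15 and 0.06 in DOX and 0.05 and 0.07 in untreated libraries. CDKN1A was chosen after the values of RPS27L had been seen, the barcodes share library and depth, and the values are a description.

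A minority of deep DOX barcodes had little ribosomal protein RNA. In the DOX libraries 78 of 1259 and 55 of 962 deep barcodes had a share under 10%, against 3 of 3320 and 4 of 1924 in the untreated libraries. In these DOX barcodes the median MALAT1 share was 2.93% and 3.44%, against 0.459% and 0.475% in the other deep DOX barcodes, and their median mitochondrial share was 2.93% and 3.26% against 5.32% and 5.62%. The limit of 10% cuts a continuous range, with 27 and 20 deep DOX barcodes between 8% and 12%. In the other classes such low shares were not particular to DOX. Among shallow barcodes they were found in 0 of 4338 and 1 of 4243 (DOX) and 18 of 140 and 6 of 71 (untreated). Among intermediate barcodes they were found in 41 of 939 and 33 of 606 (DOX) and 17 of 327 and 5 of 82 (untreated).

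Barcodes removed by the study's limits had lower ribosomal protein shares than the kept ones in every library and class. One of the limits is the mitochondrial share, and mitochondrial UMIs lower the share of all other genes. Removed intermediate barcodes held 28.8% and 23.6% mitochondrial UMIs in DOX and 21.1% and 32.9% in untreated libraries. The size of this part was not tested. Removed deep barcodes held 15.9% and 17.8% in DOX and 18.0% and 17.5% in untreated libraries, and removed intermediate barcodes held 13.5% and 14.7% in DOX and 8.24% and 3.97% in untreated libraries.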
